A study of Homo sapiens with 2 samples.

Results

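Cytosolic ribosomal proteins are the protein components of the ribosome that translates nuclear-encoded mRNAs. Their genes were followed in PC3 cells, a human prostate cancer line, derived from a metastasis in bone, that lacks p53. The members were all genes named RPL or RPS with a number and an optional A, X or L, together with RPLP0, RPLP1, RPLP2 and RPSA, that had a probe set assigned to them alone by the array annotation. S6 kinases, pseudogenes and the Y-linked RPS4Y genes were left out. This gave 56 genes read by 114 probe sets, out of 18392 genes on the array. Of these, 35 encode proteins of the large subunit and 21 proteins of the small subunit.

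The study held 2 microarrays. One was hybridised with RNA of PC3 cells given DMSO, the solvent control. The other was hybridised with RNA of PC3 cells given 10 µM fluphenazine, a phenothiazine antipsychotic, and the title of the series names castration-resistant prostate cancer as its subject. How long the cells were treated is not stated in the labels. With 1 array per treatment, no value below has an error between cultures and no test was made. Each difference is the log2 signal with fluphenazine minus the log2 signal with DMSO, and it describes these 2 arrays only.

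The large subunit carries the peptidyl transferase centre, a factor-binding stalk and the tunnel through which the nascent chain leaves. The small subunit binds the mRNA and holds the decoding site. Ribosomal protein mRNAs belong to the TOP class: they begin with a C and a run of pyrimidines, a terminal oligopyrimidine tract, through which mTORC1 and the RNA-binding protein LARP1 control their translation. Control of this kind acts on how much of the mRNA is loaded on ribosomes, which an array of total RNA does not measure.

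The tract at the transcription start is the sequence feature that the members share and that the choice of members did not use. RefSeq start regions (GRCh38.p14) were found for 48 of the 56 members, 6 of them with more than 1 start. A tract was counted where a C followed by at least 4 further C or T bases began within 5 bases of an annotated start, read on the gene's own strand. It was present in 40 of 48 members (83.3%), against 28.0% of 15842 protein-coding genes. The share was 24 of 28 in the large subunit and 16 of 20 in the small subunit. Tract length ranged from 5 to 22 bases, with a median of 11. The windows below run from 20 bases before the start to 20 bases from it, with the tract in capitals. They are shown for 5 members that were among the highest or lowest of their subunit, for RPL39 as the longest tract, and for RPS27 beside its paralog RPS27L, which has none. Not shown are a further start of RPL34 without a tract and another of RPS19 with a tract of 5 bases.
RPS25, chr11:119018324-119018363, minus strand: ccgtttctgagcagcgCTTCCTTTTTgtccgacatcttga
RPS6, chr9:19380217-19380256, minus strand: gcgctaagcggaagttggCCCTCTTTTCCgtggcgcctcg
RPL34, chr4:108620556-108620595, plus strand: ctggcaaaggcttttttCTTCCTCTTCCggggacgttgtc
RPL35A, chr3:197950170-197950209, plus strand: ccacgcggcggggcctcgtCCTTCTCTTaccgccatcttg
RPS19, chr19:41860235-41860274, plus strand: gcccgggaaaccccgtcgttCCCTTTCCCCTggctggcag
RPL39, chrX:119791611-119791650, minus strand: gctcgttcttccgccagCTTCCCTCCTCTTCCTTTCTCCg
RPS27, chr1:153990742-153990781, plus strand: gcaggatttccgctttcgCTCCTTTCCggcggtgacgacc
RPS27L, chr15:63157458-63157497, minus strand: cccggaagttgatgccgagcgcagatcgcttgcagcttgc

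Other motifs were searched in the same 300-base start regions. The ETS-family core GGAAGT, searched on both strands, was found in 22 of 48 members (45.8%) and in 29.7% of protein-coding genes. ATGGCGGC, part of the YY1 motif, also on both strands, was found in 4 of 48 members (8.33%) and in 5.23% of protein-coding genes. A TATAAA between 40 and 15 bases before the start, on the gene's own strand, was found in 2 of 48 members and in 4.19% of protein-coding genes. These matches are descriptions of sequence and not of binding.

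The ribosomal protein genes differed very little between the arrays. Genes were counted above an expression floor of 6.19, the median over genes of the higher of their 2 signals, which left 52 members and 9196 genes in all. No member was 1.2-fold higher or lower, whereas 4.84% of all genes were at least 1.2-fold higher and 4.69% at least 1.2-fold lower. The member differences ran from -0.12 for RPL35A to 0.17 for RPS25 on the log2 scale. Their SD was 0.055, against 0.168 over all genes. Some difference above 0 was seen in 29 of 52 members, against 48.2% of all genes, and some difference below 0 in 23 of 52, against 51.8%. The median member difference was 0.014 and that of all genes was -0.0069.

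**Figure D1:**
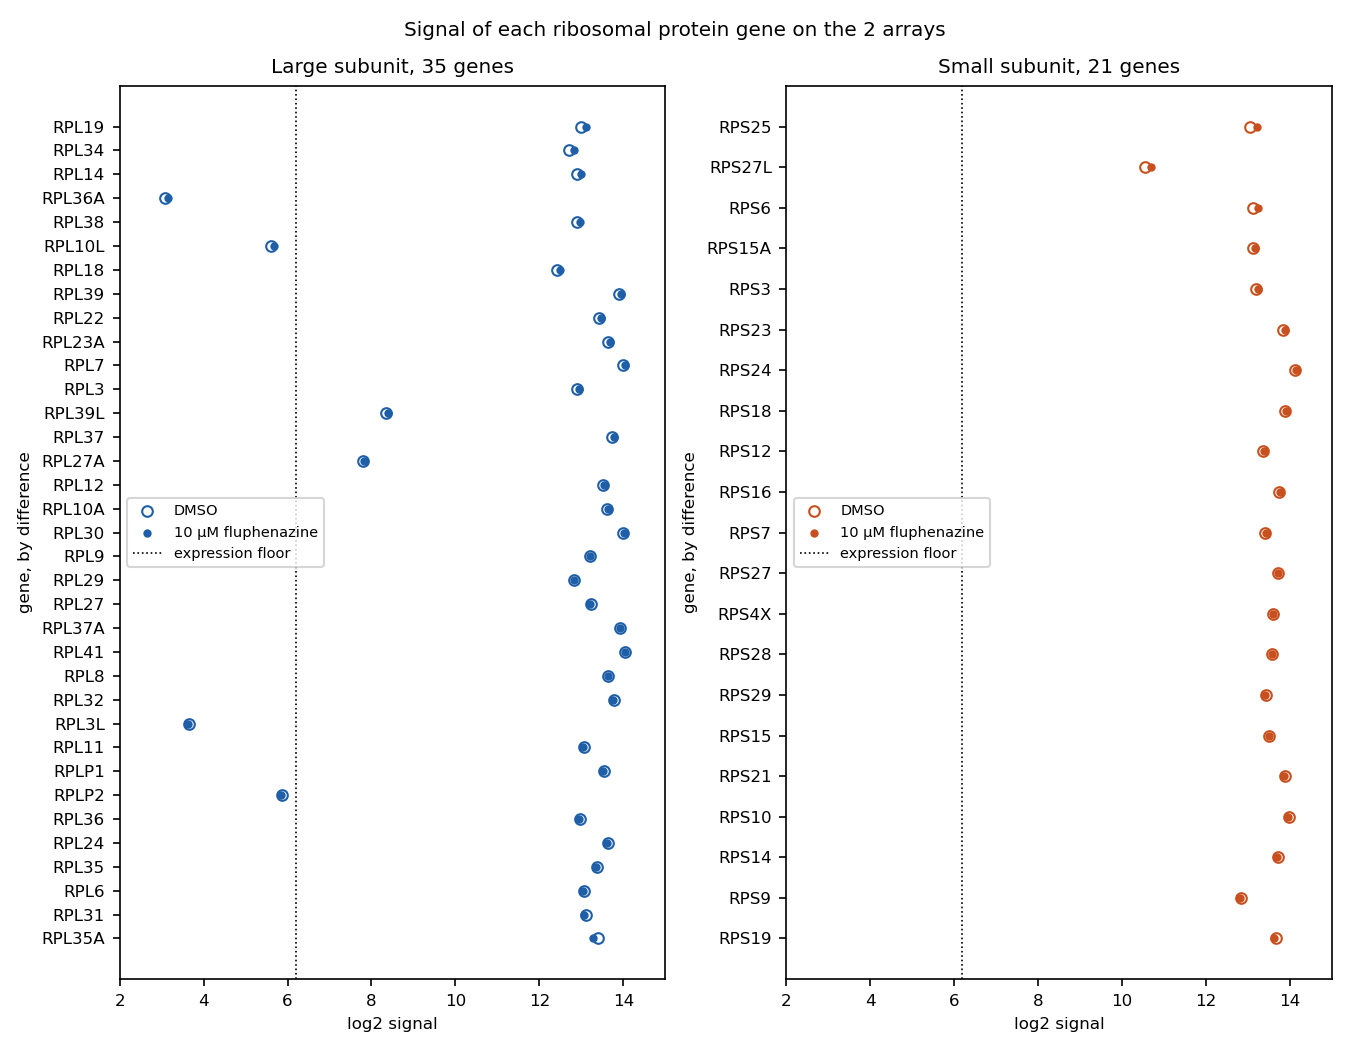
Log2 signal of each of the 56 ribosomal protein genes with DMSO (open circles) and with 10 µM fluphenazine (filled circles), for the large subunit (left, 35 genes) and the small subunit (right, 21 genes), ordered by difference. The 2 symbols of each gene nearly coincide, and 4 large-subunit genes lie under the expression floor of 6.19 (dotted line).

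The 2 subunits lay close together. The large subunit had a median difference of 0.0063 over 31 genes, with 16 higher and 15 lower, and its median was 0 after quantile normalization. The small subunit had a median of 0.017 over 21 genes, with 13 higher and 8 lower, and its median turned to -0.0036 after quantile normalization. The large subunit median was thus 0.010 below that of the small subunit as deposited (a difference of -0.010) and 0.0036 above it after quantile normalization. Single members are read against the spread between probe sets of one gene. Above the floor 22 members had more than 1 probe set, and the differences of probe sets of the same gene had a pooled SD of 0.072, and over 3668 genes of all kinds it was 0.130. The order of most members therefore lies within what probe sets of one gene disagree by.

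Signal level was set beside the spread of the member differences. Of the 52 members, 49 had a mean signal over 12, a level passed by 2.94% of all genes, and 41 had one over 13, where the highest value on either array was 14.28. Differences were smaller among bright genes in general. In the brightest 10% of genes above the floor, which held 49 of the members, 3.26% were at least 1.2-fold higher and 1.85% at least 1.2-fold lower. Of those 49 members 26 were higher and 23 lower by any amount, against 50.5% and 49.5% of the band. The 871 other genes of that band had an SD of 0.133. Among genes with a mean over 13, a level chosen after the values were seen, the 41 members had an SD of 0.051 and ran from -0.12 to 0.17, while the 48 other genes had an SD of 0.114 and ran from -0.20 to 0.48. Whether the arrays compress differences at the top of their range was not tested.

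**Figure D2:**
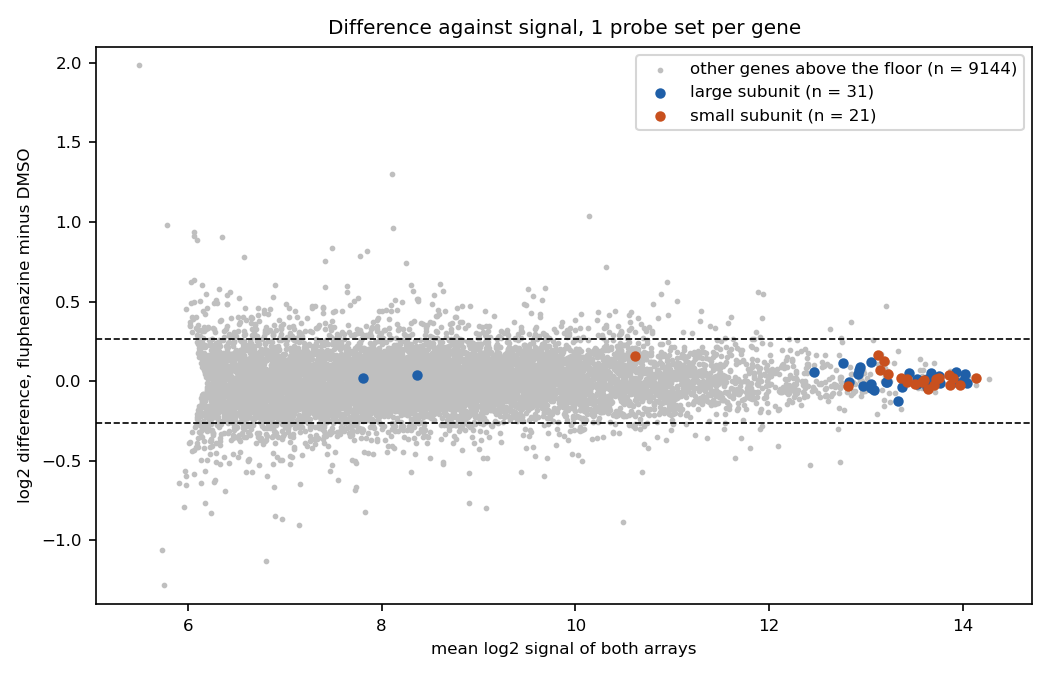
Log2 difference (fluphenazine minus DMSO) against the mean log2 signal of both arrays for the 9196 genes above the floor, with large-subunit genes in blue, small-subunit genes in orange and the other genes in grey. Dashed lines mark 1.2-fold. The members sit at the bright end of the range, and none of the 52 passes either line.

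The highest member was RPS25, a protein of the small subunit head that some viral and other internal ribosome entry sites need. Its single probe set read 13.03 with DMSO and 13.20 with fluphenazine, a difference of 0.17 or 1.12-fold. A difference at least as high was seen in 12.2% of all genes and in 9.46% of the brightest 10%. RPS25 and RPS27L were the only 2 members at least 1.1-fold higher, and none of the 52 was 1.1-fold lower. Over all genes these shares were 16.6% and 18.2%, and in the brightest 10% they were 13.3% and 9.13%.

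RPS6, the small subunit protein that S6 kinases phosphorylate downstream of mTORC1, came next in the small subunit after RPS27L. Its brightest probe set by the mean of both arrays read 13.12 with DMSO and 13.24 with fluphenazine, a difference of 0.13. The other 2 probe sets above the floor read 13.18 and 12.93 with DMSO and differed by -0.015 and -0.010. The mean over all 4 of its probe sets was 0.024, so the value depends on the choice of probe set. The suffix of the probe set chosen, _x_at, marks probes that can hybridise to other transcripts.

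Further members of the small subunit stayed nearer to 0. RPS15A read 13.11 and 13.18, a difference of 0.069, or 0.12 with its 3 probe sets averaged. Only the brightest of those 3 was above the floor. RPS3, which lines the entry to the mRNA channel, read 13.20 and 13.24, a difference of 0.045. RPS23, at the decoding site, read 13.84 and 13.87, a difference of 0.038, or 0.071 with averaged probe sets. That average includes a probe set under the floor, at 5.57 with DMSO. RPS15, whose tail reaches towards the decoding site, read 13.51 and 13.49, a difference of -0.020. The channel and decoding proteins were thus split between both directions, and RPS2, also on that list, is not analysed here.

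At the low end of the small subunit stood RPS19, the gene most often mutated in Diamond-Blackfan anaemia. It read 13.67 with DMSO and 13.62 with fluphenazine, a difference of -0.051, and its 2 probe sets above the floor gave -0.051 and -0.039. RPS9 was at -0.029 (-0.013 averaged), RPS14, whose loss underlies the anaemia of the 5q- syndrome, at -0.024 (-0.14 averaged, with 3 of 4 probe sets under the floor), RPS10 at -0.024 and RPS21 at -0.024. The 4 probe sets of RPS10, all above the floor, ranged from -0.051 to -0.024. On their brightest probe sets the remaining small-subunit genes lay between -0.0074 for RPS29 and 0.023 for RPS24. RPS16 was among them at 0.017, but its probe sets disagreed. Those reading 13.24 and 12.72 with DMSO gave -0.098 and -0.094, both below the value of RPS19. Its dimmest probe set, under the floor, gave 0.24, and the mean over all 4 was 0.017.

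In the large subunit the highest member was RPL19, which reaches across to the small subunit and lies near the tunnel exit. It read 12.996 with DMSO and 13.114 with fluphenazine, a difference of 0.12. RPL34 read 12.70 and 12.81, a difference of 0.11. Both have 1 probe set, whose plain _at suffix marks probes designed to be specific to one gene. RPL14 was at 0.089, but its 3 probe sets spanned -0.063 to 0.156. RPL38, which in mouse embryos is needed for translation of Hox mRNAs, was at 0.073, but its 3 probe sets spanned -0.0098 to 0.158. RPL18 was at 0.060.

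The lowest member of all was RPL35A, another Diamond-Blackfan anaemia gene. Its brightest probe set read 13.40 with DMSO and 13.27 with fluphenazine, a difference of -0.12 or 1.09-fold lower. A second probe set of nearly the same brightness gave -0.026, and the mean over all 4 was -0.073. The 4 probe sets were all lower, and they differed in size by more than the distance of most members from 0. RPL31 was at -0.058 (13.11 and 13.06), whereas a dimmer probe set of the same gene gave 0.22 (8.51 and 8.72) and the mean of its 3 probe sets was 0.047. RPL6 was at -0.040, RPL35 at -0.036 and RPL24, part of a bridge to the small subunit, at -0.035.

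The parts of the large subunit showed no common shift. The stalk recruits elongation factors, and RPLP1 read 13.53 and 13.51 while RPL12, at its base, read 13.52 and 13.53. With averaged probe sets these 2 differences changed sign, from -0.017 to 0.024 and from 0.015 to -0.016. RPLP2 was under the floor at 5.88 and 5.85 on its single probe set, and RPLP0 is not analysed here. Bright members also have probe sets this dim, such as RPS12 with 13.35 and 5.58 under DMSO. Whether the low signal of RPLP2 comes from the gene or the probe set was not tested. RPL11, which with RPL5 and 5S rRNA forms the particle that binds MDM2 when ribosome assembly stalls, read 13.06 and 13.05. RPL5 is not analysed here. Of the 6 proteins measured at the exit tunnel and its mouth, 4 were higher and 2 lower, with a median of 0.055. They were RPL19, RPL38, RPL39 (13.90 and 13.96), RPL23A (13.64 and 13.69), RPL35 and RPL31. Restricted to plain _at probe sets, 3 were left and the median was -0.018.

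Genes mutated in Diamond-Blackfan anaemia, drawn from both subunits, had 13 of 18 listed members above the floor. Of these, 4 were higher and 9 lower, against 48.2% and 51.8% of all genes, with a median of -0.0074. When each array was centred on its median, 7 were higher and 6 lower, and the median turned to 0.0032. Averaged probe sets also gave 7 higher and 6 lower, whereas quantile normalization gave 3 higher and 10 lower. No member of the list other than RPL35A lay further from 0 than 0.060.

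Paralogs gave the other part of the member list. RPS27L, which p53 activates in cells that have it, read 10.53 with DMSO and 10.69 with fluphenazine on its brightest probe set, a difference of 0.16. Its second probe set above the floor read 7.32 and 7.17, a difference of -0.15, and the mean of all 3 was -0.020. The probe sets of RPS27L thus disagree in direction, more than those of any other member above the floor. RPS27, its canonical copy, read 13.71 and 13.72. RPL39L, known from testis and some tumours, read 8.35 and 8.38, and RPL39 differed by 0.057. RPL3L, a muscle form, was under the floor at 3.64 and 3.63, with RPL3 at 12.89 and 12.93. RPL10L, a testis form, was under the floor at 5.62 and 5.69. Outside the naming rule, RPL22L1 read 9.47 and 9.66, a difference of 0.19, beside RPL22 at 0.053 (0.017 averaged), and RPL26L1 read 10.63 and 10.49, a difference of -0.14. RPL36AL and RPL7L1 were at 0.035 and 0.028. FAU, which encodes a ubiquitin-like protein fused to small-subunit protein S30, was at -0.077 (13.28 and 13.20).

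**Figure D3:**
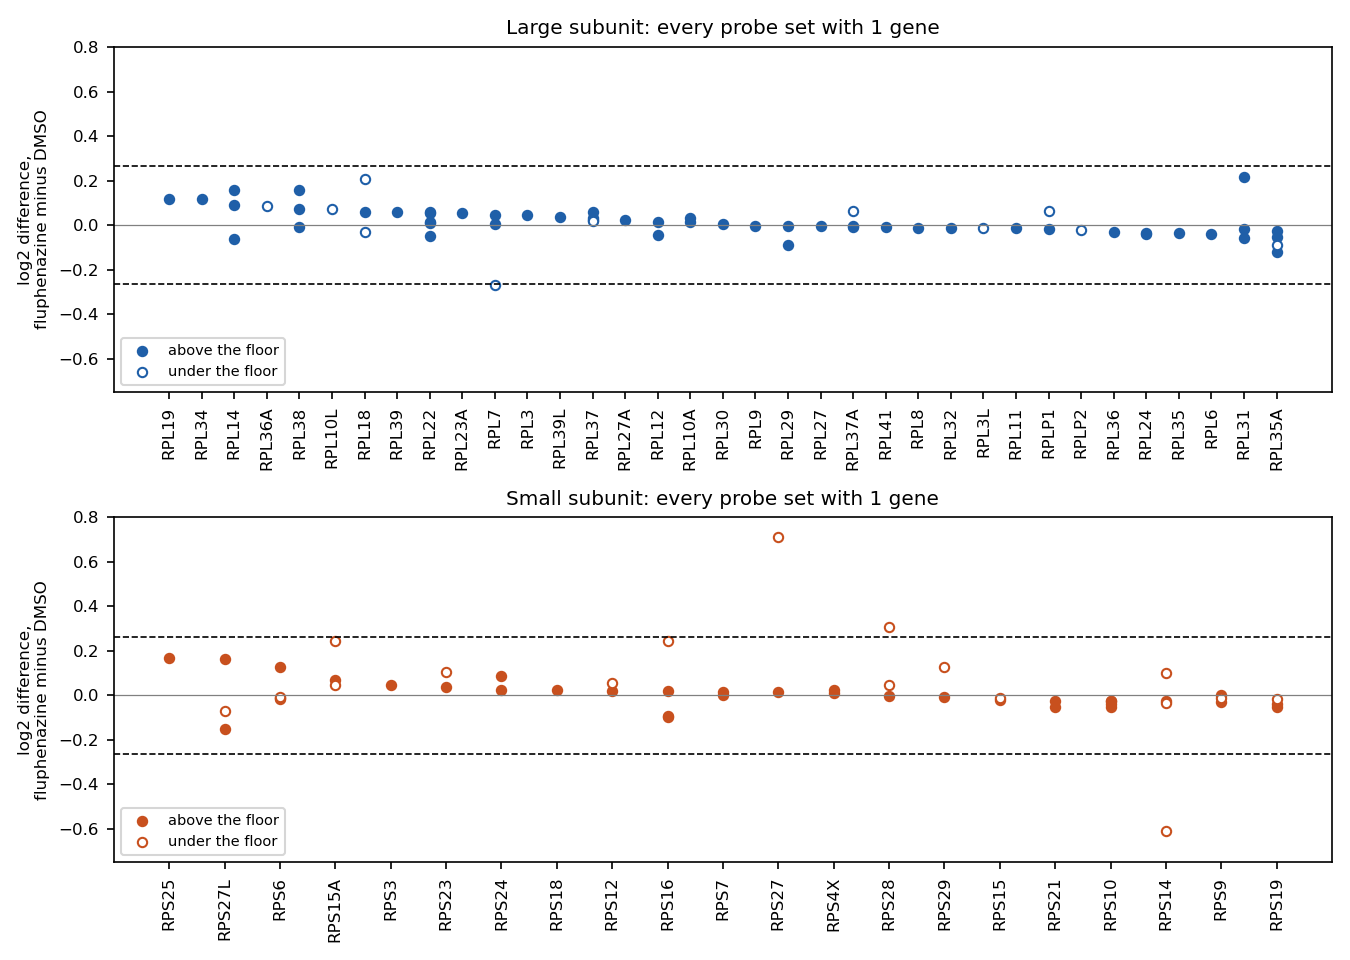
Log2 difference (fluphenazine minus DMSO) of all 114 probe sets of the members, by gene, for the large subunit (top) and the small subunit (bottom). Filled points are the 86 probe sets above the floor, open points the 28 under it, and dashed lines mark 1.2-fold. All filled points lie between -0.15 and 0.22, while the open ones reach -0.61 and 0.71.

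Dim probe sets varied more than bright ones. The 86 member probe sets above the floor ranged from -0.15 to 0.22, and the 28 under the floor from -0.61 to 0.71. The extremes were a probe set of RPS14, which read 3.72 and 3.11, and one of RPS27, which read 2.42 and 3.13. The brightest probe sets of those genes differed by -0.024 and 0.015. Under the floor the SD was 0.213 for member probe sets and 0.245 for all 22483 probe sets with 1 gene. RPL36A, at 3.07 and 3.16 on its single probe set, was the last of the 4 members under the floor. Whether its low signal comes from the gene or the probe set was not tested.

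Many ribosomal protein genes host small nucleolar RNAs in their introns, and the annotation then lists several genes for one probe set. Of 81 RefSeq genes that match the naming rule, 25 had no probe set of their own and are not analysed here by name. For 48 probe sets the annotation listed 1 gene of the family and otherwise only small nucleolar RNA or microRNA genes. The 37 of them above the floor ranged from -0.19 to 0.14, with a median of 0.013. Of their host genes, 12 had no probe set assigned to them alone. They lay within 1.2-fold as the members did.

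Genes around the ribosome were compared with it. Other mRNAs of the TOP class had a median of -0.011 over 13 genes, 6 higher and 7 lower, and of 0.023 with averaged probe sets. Plain _at probe sets left 6 genes, 3 higher and 3 lower, with a median of 0.088. Among the 13 genes were the elongation factors EEF1A1 at -0.011 (14.04 and 14.03) and EEF2 at -0.072 (12.90 and 12.83). The nucleolar chaperone NPM1 was at 0.083 and HNRNPA1 at 0.16. With averaged probe sets EEF1A1 was at 0.12, NPM1 at 0.033 and HNRNPA1 at -0.035, so the sign of EEF1A1 and HNRNPA1 depends on the probe sets. The intermediate filament gene VIM stood apart from the other 12 at -0.48, with 8.74 and 8.26. Genes of mTORC1 and of TOP mRNA control had a median of -0.025 over 10 genes, 3 higher and 7 lower, against 48.2% and 51.8% of all genes. With each array centred on its median, 4 were higher and 6 lower, with a median of -0.015. Averaged probe sets and plain _at probe sets each gave a median of -0.040. The kinase gene MTOR was at -0.18 (7.36 and 7.19) and its partner MLST8 at -0.20 (6.84 and 6.64). The S6 kinase RPS6KB1 was at 0.21 (9.11 and 9.33), or at 0.033 with its 3 probe sets averaged. LARP1 was at 0.027, or at 0.14 with averaged probe sets.

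Chaperones and importers of ribosomal proteins had a median of -0.049 over 12 genes, 4 higher and 8 lower. With averaged probe sets 6 were higher and 6 lower, with a median of -0.021, and plain _at probe sets gave -0.0052. The importin IPO7 was at 0.25 (10.43 and 10.68), or 0.16 averaged, and TSR2, the carrier of RPS26, was at -0.18 (7.90 and 7.72). Genes that detect and clear stalled or collided ribosomes had a median of 0.030 over 11 genes, 6 higher and 5 lower, which turned to -0.0088 with averaged probe sets. LTN1, the ubiquitin ligase of stalled large subunits, was at 0.10 (the average of its 2 probe sets was -0.046), and GCN1, which links collided ribosomes to the kinase GCN2, was at -0.11.

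Mitochondrial ribosomal proteins, the second family of ribosomal proteins in the cell, lay lower than the cytosolic ones. All 72 measured genes were above the floor, with 17 higher and 55 lower, against 48.2% and 51.8% of all genes. Their median was -0.091, against 0.014 for the 52 cytosolic genes and -0.0069 for all genes. At least 1.1-fold lower were 21 of 72, compared with 18.2% of all genes and none of the cytosolic members. At least 1.1-fold higher was 1 of 72, compared with 16.6% of all genes and 2 of the 52 cytosolic members. MRPS11 was at -0.25 (9.14 and 8.89), but at -0.044 with its 2 probe sets averaged, and MRPL50 was at 0.14 (8.33 and 8.47). The mitochondrial median lay between -0.093 and -0.064 under the other scalings and probe set choices. The mitochondrial genes are dimmer on the array than the cytosolic ones, and this difference between the families was not tested, since genes are not replicates of a treatment.

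**Figure D4:**
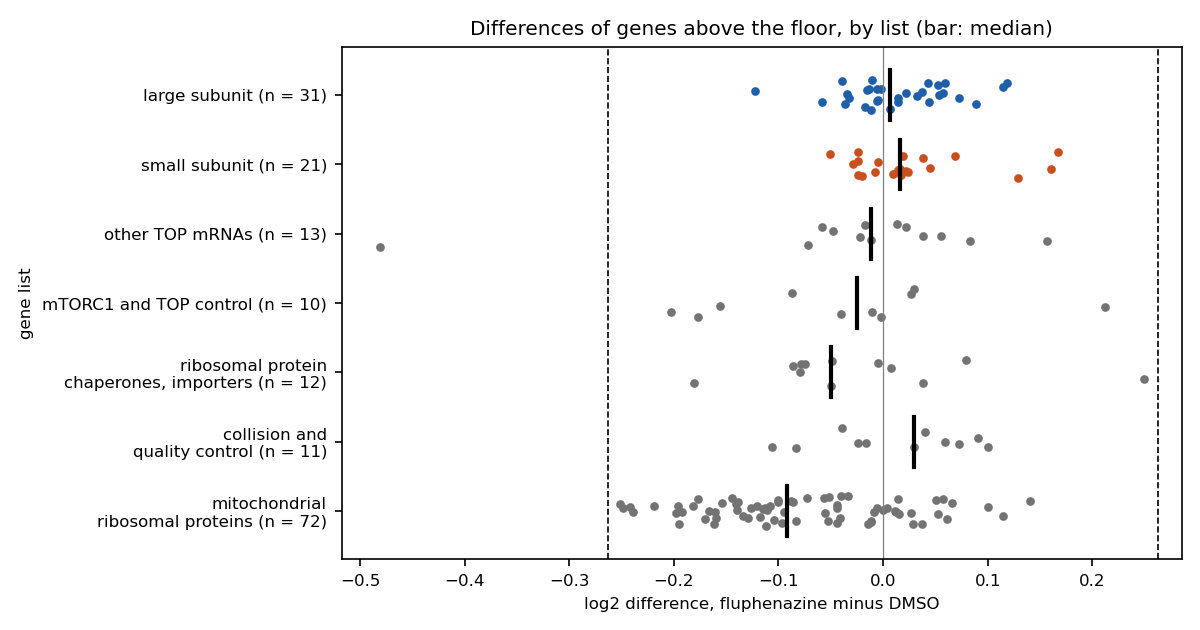
Log2 difference (fluphenazine minus DMSO) of each gene above the floor, by list, with 1 point per gene (vertical scatter is for display only), a black bar at each median and dashed lines at 1.2-fold. The medians are 0.0063 for the large and 0.017 for the small cytosolic subunit (0 and -0.0036 after quantile normalization) and -0.091 for the 72 mitochondrial ribosomal proteins.

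Quality of the arrays was compared through controls. All 24 probe sets of the poly-A spike-ins, bacterial transcripts added before labelling, were lower with fluphenazine, with a median difference of -0.22, and the part of this in the member values was not tested. The 5′ and 3′ controls for ACTB differed by -0.13 and -0.0034, and those for GAPDH by 0.058 and 0.027. The labels name a whole-transcript labelling kit although the probe sets are those of a 3′ array, and they do not say how both were combined, which limits what 5′ and 3′ signals show. The 5 epithelial markers listed for PC3 were all above the floor, and all 4 measured blood markers were under it. Of the endothelial and fibroblast markers 1 each was above it, PECAM1 at 8.76 and COL1A1 at 8.33 with DMSO. Of the 3 luminal prostate markers measured, KLK3 and TMPRSS2 were near the floor, at 6.93 and 6.99 with DMSO, and KLK2 was under it.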

How the data were processed

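Both samples were measured on an Affymetrix array, and the values were used as deposited. The submitters' processing notes list RMA, Transcriptome Analysis Console 3.1 and Affymetrix Expression Console 1.4 without saying what each did. The authors' deposited table gives log2 signals for 47693 probe sets, a scale judged from its values. The array annotation, dated 2016, named 1 gene for 37145 probe sets other than controls and several for 1668. Gene identifiers were matched to RefSeq for 18354 of 18392 genes, whose symbols were taken from there, changed or not. Each gene was represented by its probe set with the highest mean. Genes entered when the higher value reached the median of that quantity. The number of arrays limits the precision, and the 1-array groups allow no test. The calculations were checked on simulated shifts. Python 3.11.15, numpy 2.4.6, pandas 2.3.3 and scipy 1.17.1 were used. Start regions came from RefSeq (GRCh38.p14). No genome build is stated for the array files. Named members were the 5 highest and 5 lowest of each subunit, the genes of the structural and paralog lists, and the 4 with the widest probe set range. From each other list up to 2 genes each way were taken; EEF1A1, LARP1, FAU and the remaining paralogs are named for their role. The members and lists were chosen with earlier results of these data known. Alternatives were 3 scalings, 2 probe set choices, 2 floors, 2 folds, single probe sets and the omission of paralogs.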

Additional observations from a re-analysis of the deposited data

How the results depend on the processing

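The large subunit median lay between -0.0023 and 0.024, and the small subunit median between -0.0046 and 0.027, over 11 alternatives each. Both ranges include 0, so neither median has a settled direction. The large minus small difference lay between -0.019 and 0.011 over 10 alternatives. No member was 1.2-fold lower under any of 12 alternatives, 2 of which changed the fold to 1.1 and 1.5. Single probe sets were counted only above the floor. Of the 28 member probe sets under it, 2 were at least 1.2-fold higher and 2 at least 1.2-fold lower. Among all 22483 probe sets with 1 gene under the floor, these counts were 2748 and 2957. The count of members at least 1.2-fold higher was 0 except that it was 1 with averaged probe sets, where RPS27 came to 0.36 through its dim probe set. With a 1.1-fold threshold the count of higher members was 2. Of 98 alternative values of 36 named members, 90 moved by less than 0.130 and 11 had the other sign. That limit is the pooled SD between probe sets of one gene over genes of all kinds. It is wider than the 0.072 of the members and than most member differences. For a member with 1 probe set, averaged probe sets return the reported value by construction. The 90 therefore do not measure how stable single members are. The addition of probe sets that also list small RNAs was chosen after seeing the data. No paired analysis was possible because each treatment has 1 array. Most members lie close to the top of the signal range, and how far that limits their differences was not tested.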
